A study of Mus musculus with 8 samples.

Results

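The collagen genes other than type IV were measured in embryonic mouse kidney. They were chosen by symbol (Col, a number, the letter a, a number), leaving out the Col4a genes. The files hold 38 such genes of 24151, of which 31 have 1 RefSeq transcript and 7 have several, and their transcripts were summed per gene. The kidneys came from embryos of ICR mice, an outbred stock, whose mothers were 8 weeks old. Mothers in the CPF group received chlorpyrifos (CPF), an organophosphate insecticide, dissolved in dimethyl sulfoxide (DMSO), injected subcutaneously at a daily dose of 5 mg/kg between gestation days 7.5 and 11.5. Mothers in the DMSO group received the same volume of DMSO alone (0 mg per kg CPF), so DMSO is shared by both groups. Kidneys were taken at 4 embryonic (E) days 2 days apart, the first at E12.5 and the last at E18.5, and RNA sequencing gave 8 libraries, 1 per group and stage. The study set exposed kidneys against vehicle kidneys along development. The number of embryos or litters behind a library is not stated in the sources read.

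Collagens are proteins whose chains wind together as helical trimers, and apart from the transmembrane collagens they are secreted. Fibrillar collagens (types I, II, III, V, XI, XXIV and XXVII) pack into the banded fibrils that give connective tissue its tensile strength. FACIT collagens (fibril-associated collagens with interrupted helices) sit on the surface of such fibrils, type VI collagen forms beaded microfilaments around cells, and the multiplexins XV and XVIII lie in and near basement membranes. In the developing kidney, stromal and mural cells are the main known sources of fibrillar and type VI collagen, while the network of the basement membrane itself is type IV collagen.

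The values are TPM, transcripts per 1000000, which are scaled by transcript length, so levels of different genes can be set side by side. The step between low values puts 1 read in 1 kb of transcript at 0.061 to 0.1049 TPM. Genes with several RefSeq transcripts were mostly near 0 in these files (the median of the 4777 such genes was 0.142 TPM, while the 19374 genes with a single transcript had a median of 3.64 TPM). A low value of Col2a1, Col6a3, Col6a6, Col9a1, Col17a1, Col18a1 or Col25a1, the 7 members with several transcripts, is therefore a listed value only. The small RNAs Rpph1 and Rmrp took 19.25 to 21.77% of the TPM in CPF libraries and 19.58 to 41.83% in DMSO libraries, highest at E18.5. All other genes share the rest of each total, and the median gene differed by 0.53 (log2, CPF minus DMSO) at E18.5 as deposited and by 0.14 after coding transcripts were scaled to 1000000 in each library. All 10 kidney markers passed the filter on low values, among them Wt1 at 69.9 to 155 TPM. Liver markers summed to 197.5 to 5648 TPM in CPF libraries and 21.2 to 919 TPM in DMSO libraries, and adrenal cortex markers to 10.9 to 450.2 TPM in CPF and 4.65 to 20.4 TPM in DMSO libraries. The CPF E14.5 and E16.5 libraries had the highest sums of both lists.

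The 38 collagens together took 0.211, 0.228, 0.419 and 0.283% of the TPM in CPF kidneys at the 4 stages, earliest first, and 0.179, 0.217, 0.242 and 0.175% in DMSO kidneys. They summed to 2107, 2280, 4195 and 2833 TPM in CPF kidneys and to 1789, 2171, 2419 and 1751 TPM in DMSO kidneys. The CPF library was thus above the DMSO library of its stage at 4 of 4 stages, by 1.18-fold, 1.05-fold, 1.73-fold and 1.62-fold; the last of these was 1.17-fold after scaling to coding transcripts. The 11 fibrillar genes made up 67.3 to 75.7% of the collagen TPM in CPF kidneys and 68.2 to 75.2% in DMSO kidneys. Col3a1, Col1a1 and Col1a2 alone held 55.9 to 64.5% in CPF kidneys and 54.5 to 60.4% in DMSO kidneys. The mean over the 8 libraries reached 1 TPM for 33 of the 38 genes and 5 TPM for 24. The values of these 24 are given library by library, in the order of the stages from E12.5 to E18.5. The gene just above 5 TPM was Col9a3 (mean 5.10 TPM) and the gene just below was Col10a1 (mean 4.25 TPM).

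**Figure D1:**
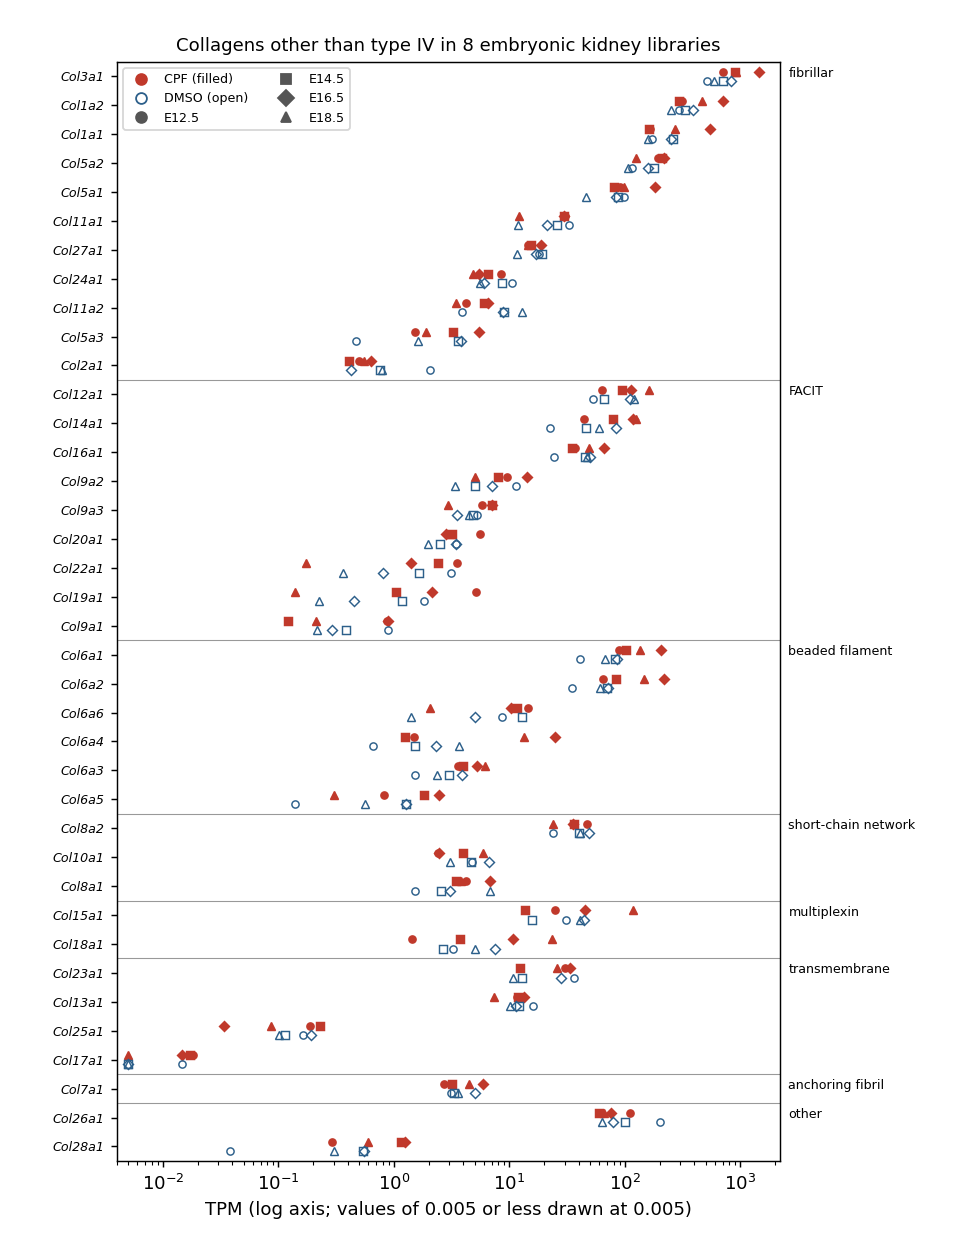
TPM (log axis) of the 38 collagens in each of the 8 libraries, with CPF filled and above, DMSO open and below, and the stage given by the marker shape. Rows are grouped by class and sorted by mean within a class. The genes run from Col3a1 at 515 to 1451 TPM down to Col17a1, which reached at most 0.0184 TPM.

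Among the fibrillar collagens, Col3a1 was the most abundant by mean, followed by Col1a2, Col1a1, Col5a2 and Col5a1, the main chains of types I and V. Col3a1, whose homotrimers form type III collagen of soft and stretchable tissue, stood at 701, 894, 1451 and 913 TPM in CPF kidneys, against 515, 711, 825 and 585 TPM in DMSO kidneys. It was higher in the CPF library at each stage and highest at E16.5 under both agents. Col1a2, a chain of type I collagen, had 311, 293, 709.6 and 462 TPM in CPF kidneys, against 291, 333, 387 and 253 TPM in DMSO kidneys. Col1a1, its partner chain, had 165, 160.5, 547 and 272 TPM in CPF kidneys, against 169.8, 259, 248 and 159.6 TPM in DMSO kidneys. Both type I chains peaked in the CPF E16.5 library, whereas at E14.5 the CPF library lay below the DMSO library for both. For Col5a2, a chain of type V collagen, which starts fibrils and limits their width, the values were 195, 208, 219 and 125 TPM in CPF kidneys, against 115, 177, 157 and 107 TPM in DMSO kidneys. For its partner Col5a1 they were 91.1, 79.97, 182 and 97.8 TPM in CPF kidneys, against 98.7, 86.3, 83.9 and 46.0 TPM in DMSO kidneys. Col5a2 was higher in CPF at each stage and Col5a1 at E16.5 and E18.5. Col3a1 (chr1:45311538-45349706) and Col5a2 (chr1:45374331-45503282) are neighbours on chromosome 1 of GRCm38.p6.

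The remaining fibrillar genes were lower. Col11a1, which nucleates fibrils in cartilage and is also made in soft tissue, measured 30.3, 29.9, 29.6 and 12.1 TPM in CPF kidneys, against 32.9, 25.8, 21.1 and 11.8 TPM in DMSO kidneys. Both E18.5 libraries were below the other 6. Col27a1, a fibrillar chain best known from growth plate cartilage, stayed within a narrow band, with 14.51, 15.3, 18.8 and 14.6 TPM in CPF kidneys, against 17.9, 19.3, 17.0 and 11.6 TPM in DMSO kidneys. Col24a1, known from bone, had 8.42, 6.57, 5.45 and 4.83 TPM in CPF kidneys, against 10.5, 8.58, 6.04 and 5.53 TPM in DMSO kidneys, lower in CPF at each stage. Col11a2, another type XI chain, reached 4.22, 6.00, 6.56 and 3.45 TPM in CPF kidneys, against 3.91, 8.96, 8.84 and 12.8 TPM in DMSO kidneys; the E18.5 libraries were the lowest CPF value and the highest DMSO value. Col5a3, a further type V chain, ranged between 0.468 and 5.45 TPM. Col2a1, the main fibrillar collagen of cartilage, was listed at 0.407 to 2.04 TPM and has 2 transcripts. Of 9 cartilage markers, 8 were in the files and 4 passed the filter on low values; they summed to 14.9 to 27.9 TPM in CPF and 7.33 to 31.7 TPM in DMSO libraries. Acan was at 0.412 to 3.49 TPM in CPF and 0.0767 to 0.743 TPM in DMSO libraries, Comp was at or below 0.879 TPM, Ucma (with several transcripts) was listed at 0 in all 8, and most of the sum was Hapln1.

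Among the FACIT collagens, Col12a1 and Col14a1, which bind the surface of type I fibrils in tendon, ligament and other dense connective tissue, were the most abundant. Col12a1 stood at 63.7, 94.1, 112 and 160.1 TPM in CPF kidneys, against 52.6, 66.2, 111 and 119 TPM in DMSO kidneys. Col14a1 stood at 44.5, 78.8, 116.5 and 126 TPM in CPF kidneys, against 22.6, 46.2, 83.2 and 59.1 TPM in DMSO kidneys. In CPF kidneys both had their lowest value at E12.5 and their highest at E18.5, and in DMSO kidneys the lowest was likewise at E12.5. Col16a1, found near fibrils and basement membranes, had 37.3, 34.5, 65.4 and 49.3 TPM in CPF kidneys, against 24.5, 44.8, 49.8 and 47.1 TPM in DMSO kidneys. Col9a2, a chain of type IX collagen of cartilage, had 9.44, 8.00, 14.2 and 5.08 TPM in CPF kidneys, against 11.3, 5.00, 7.02 and 3.35 TPM in DMSO kidneys. Col9a3, its partner, had 5.73, 7.11, 7.02 and 2.93 TPM in CPF kidneys, against 5.23, 4.86, 3.49 and 4.44 TPM in DMSO kidneys. Neither type IX chain passed 14.2 TPM in any library. The remaining chain, Col9a1, has 2 transcripts and was listed at 0.122 to 0.892 TPM.

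The other FACIT genes were near the floor at E18.5 or low throughout. Col22a1, known from the junction of muscle and tendon, had 3.51, 2.42, 1.40 and 0.172 TPM in CPF kidneys, against 3.14, 1.64, 0.810 and 0.360 TPM in DMSO kidneys. Col19a1, a rare collagen that mouse embryos make in muscle, had 5.16, 1.05, 2.12 and 0.139 TPM in CPF kidneys, against 1.82, 1.18, 0.449 and 0.226 TPM in DMSO kidneys. At E18.5 the 2 genes rested on few reads, an estimated 14.46 reads of Col22a1 and 5.67 reads of Col19a1 in the CPF library, and 52.0 and 15.8 in the DMSO library. Col20a1 ranged between 1.99 and 5.53 TPM over the 8 libraries.

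The beaded filament genes were led by Col6a1 and Col6a2, the short chains that join a longer one in type VI collagen. Col6a1 measured 88.1, 102.5, 206 and 135 TPM in CPF kidneys, against 41.2, 82.3, 85.2 and 66.6 TPM in DMSO kidneys. Col6a2 measured 64.0, 84.5, 219.7 and 146 TPM in CPF kidneys, against 35.1, 69.7, 70.8 and 61.0 TPM in DMSO kidneys. Each was higher in the CPF library at every stage, least so at E14.5. The genes lie near each other on chromosome 10 of GRCm38.p6, Col6a1 at chr10:76708792-76726044 and Col6a2 at chr10:76595756-76623630. Col6a3, the usual long chain, has 2 transcripts and was listed at 3.58, 3.93, 5.21 and 6.12 TPM in CPF kidneys, against 1.53, 2.99, 3.90 and 2.34 TPM in DMSO kidneys. The genes Col6a6, Col6a5 and Col6a4, whose chains can take the place of the long chain, follow one another on chromosome 9 (chr9:105689417-105828246, chr9:105856070-105962463 and chr9:105990318-106096828). Col6a4 had 1.498, 1.24, 24.8 and 13.3 TPM in CPF kidneys, against 0.652, 1.53, 2.31 and 3.63 TPM in DMSO kidneys. Its values in the CPF E16.5 and E18.5 libraries stood apart from the other 6, which were all under 4 TPM. Col6a6, the sum of 2 transcripts of which 1 held nearly the whole value, had 14.4, 11.6, 10.4 and 2.07 TPM in CPF kidneys, against 8.57, 12.9, 5.00 and 1.42 TPM in DMSO kidneys. Col6a5 ranged between 0.139 and 2.43 TPM. The 6 genes summed to 172.3, 205.6, 468.2 and 302.1 TPM in CPF kidneys, against 87.2, 170.6, 168.6 and 135.5 TPM in DMSO kidneys.

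The bases upstream of the annotated start of the 2 most abundant fibrillar genes and of both main type VI chains are shown because these genes had their highest values in the same library, CPF E16.5. This is not particular to them, since Col1a1, Col5a1 and Col16a1, among others, were also highest there. The sequences are from RefSeq's promoter table (GRCm38.p6), 250 bases on the gene's strand up to the start site, and capitals mark 3 motifs on either strand, none of which overlap here. These were the CCAAT box, which reads ATTGG from the other strand, the TATA box as TATAAA, which reads TTTATA from the other strand, and the GC box as GGGCGG, which reads CCGCCC from the other strand. Col1a2 is at chr6:4505368-4505617 and Col3a1 at chr1:45311288-45311537, both on the plus strand. Col6a1 is at chr10:76726045-76726294 and Col6a2 at chr10:76623631-76623880, both on the minus strand.
Col1a2: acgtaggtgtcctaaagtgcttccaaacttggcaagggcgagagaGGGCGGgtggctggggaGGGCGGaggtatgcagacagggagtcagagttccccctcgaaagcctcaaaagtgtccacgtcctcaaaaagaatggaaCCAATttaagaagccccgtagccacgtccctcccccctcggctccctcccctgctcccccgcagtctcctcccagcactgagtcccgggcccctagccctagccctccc
Col3a1: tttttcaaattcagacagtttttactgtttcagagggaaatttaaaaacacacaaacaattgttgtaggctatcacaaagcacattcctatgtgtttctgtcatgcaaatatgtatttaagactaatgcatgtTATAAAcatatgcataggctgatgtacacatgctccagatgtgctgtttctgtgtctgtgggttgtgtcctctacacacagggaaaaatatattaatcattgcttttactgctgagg
Col6a1: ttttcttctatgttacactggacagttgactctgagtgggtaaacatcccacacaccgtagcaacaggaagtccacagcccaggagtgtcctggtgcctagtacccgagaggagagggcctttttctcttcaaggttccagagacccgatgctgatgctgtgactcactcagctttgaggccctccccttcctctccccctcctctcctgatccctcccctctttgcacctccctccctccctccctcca
Col6a2: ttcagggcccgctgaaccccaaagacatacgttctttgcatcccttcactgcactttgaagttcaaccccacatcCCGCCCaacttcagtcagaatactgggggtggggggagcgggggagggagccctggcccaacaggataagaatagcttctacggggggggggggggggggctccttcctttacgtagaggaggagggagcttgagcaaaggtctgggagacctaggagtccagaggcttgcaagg
Counted from the start site, the first base of CCAAT in Col1a2 is at -109 and those of GGGCGG at -205 and -188. Col3a1 holds TATAAA at -117, Col6a2 holds CCGCCC at -175, and Col6a1 holds none of the 3 in these 250 bases. The table has 30 of the 38 collagens. GGGCGG was in 18 of these 30 (60.0%), against 32.7% of all 32851 promoters of the same length. CCAAT was in 9 (30.0%), against 33.8% of all, and TATAAA in 5 (16.7%), against 12.4% of all. For each collagen the promoter nearest its annotated gene start was used, while the 32851 were taken without such a choice. The shares are therefore not like for like.

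Among the network, multiplexin, transmembrane and other collagens, Col26a1, Col15a1, Col8a2 and Col23a1 were above 10 TPM in all 8 libraries. Col26a1, first described in testis and ovary, had 110.5, 59.6, 75.1 and 65.6 TPM in CPF kidneys, against 199, 99.7, 78.5 and 63.6 TPM in DMSO kidneys. Its values were highest at E12.5 under both agents, and the DMSO value there was above the CPF value. Col15a1, a multiplexin of the basement membrane zone, had 24.8, 13.5, 44.9 and 117 TPM in CPF kidneys, against 31.1, 15.6, 43.8 and 40.9 TPM in DMSO kidneys. The CPF E18.5 library stood above the other 7. Col18a1, the multiplexin whose end is released as endostatin, has 2 transcripts, and their sum was 1.44, 3.73, 10.7 and 23.2 TPM in CPF kidneys, against 3.27, 2.67, 7.54 and 5.04 TPM in DMSO kidneys. The CPF E18.5 library was again the highest, and 19.7 of its 23.2 TPM came from 1 transcript. Col8a2, a short-chain collagen of vessel walls and of the membrane behind the cornea, had 47.1, 35.9, 35.3 and 23.6 TPM in CPF kidneys, against 23.8, 40.0, 48.7 and 40.6 TPM in DMSO kidneys. Its CPF values were highest at E12.5 and lowest at E18.5, while in DMSO kidneys the lowest was at E12.5. Col23a1, a transmembrane collagen of epithelia, had 30.5, 12.2, 33.3 and 25.7 TPM in CPF kidneys, against 36.4, 12.9, 27.7 and 10.6 TPM in DMSO kidneys. Col13a1, a transmembrane collagen known from the neuromuscular junction, had 11.7, 11.9, 13.4 and 7.31 TPM in CPF kidneys, against 16.04, 12.1, 11.5 and 10.2 TPM in DMSO kidneys. The E14.5 libraries gave low Col23a1 values under both agents, and Col13a1 stayed between 7.31 and 16.04 TPM.

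The other 6 genes of these classes had means under 5 TPM. Col7a1, the anchoring fibril collagen beneath squamous epithelia, ranged between 2.70 and 5.94 TPM, Col8a1, the partner of Col8a2, between 1.51 and 6.84 TPM, and Col10a1, the collagen of hypertrophic cartilage, between 2.42 and 6.71 TPM. Col28a1, known from peripheral nerve, was at 0.0384 to 1.24 TPM and passed the filter only through the CPF E14.5 and E16.5 libraries. Col25a1 and Col17a1 have several transcripts and were listed at 0.0340 to 0.230 TPM and at up to 0.0184 TPM. That last value is worth about 1 read.

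Partner chains kept a fixed order in some pairs and not in others. Col1a1 was below Col1a2 in all 8 libraries, with a ratio of 0.532 to 0.779 (mean 0.634 ± 0.094, SD over the 8 libraries); 2 of the first chain join 1 of the second in most type I collagen. Col3a1 was 2.65 to 5.57 times Col1a1 (mean 3.57 ± 0.96). Col6a1 over Col6a2 lay between 0.925 and 1.38 (mean 1.14 ± 0.15), and was under 1 in the CPF E16.5 and E18.5 libraries, at 0.936 and 0.925. Col5a1 over Col5a2 was less even, at 0.385 to 0.860 (mean 0.597 ± 0.194). Col9a2 over Col9a3 ran between 0.755 and 2.16, and Col8a1 over Col8a2 between 0.0623 and 0.194. Col6a3 stood at 0.0254 to 0.0458 of Col6a1, a ratio that its 2 transcripts make a listed value. These are levels of RNA, and a tissue with fewer cells of a type cannot be told apart from one with less RNA per cell.

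Over development, Col12a1 and Col14a1 rose between E12.5 and E18.5, and Col6a6, Col19a1, Col22a1, Col11a1 and Col26a1 fell, each in both agents. The test was limma on log2(TPM + 1) over all 13677 genes with at least 1 TPM in at least 2 libraries, with stage and agent as terms; ± is the standard error of the fit, and adjusted p is Benjamini-Hochberg over all tested genes. 34 of the 38 collagens passed that filter; Col2a1, Col9a1, Col17a1 and Col25a1 did not. Of the 34, 2 were called higher at E18.5, where 4.67% of all genes were, and 5 were called lower, where 3.73% of all genes were. Both E18.5 libraries lay above both E12.5 libraries for 9 of the 34 (14.8% of all genes) and below both for 11 (33.7%). The change was above 0 for 18 of 34 (36.9% of all genes), with a median of 0.23, and the median of all tested genes was -0.21. The fit takes each agent's library as the replicate of the other, so its spread is between agents and stages and not between litters.

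Col14a1 was 2.83 times its E12.5 value at E18.5 in CPF kidneys and 2.62 times in DMSO kidneys (log2 change 1.41 ± 0.30, limma adjusted p = 0.0118). Col12a1 was 2.51 times in CPF and 2.27 times in DMSO kidneys (1.24 ± 0.28, limma adjusted p = 0.018). For both genes the E18.5 values lay above the E12.5 values with no overlap. In the other direction, Col6a6 was at 0.144 of its E12.5 value in CPF kidneys and 0.165 in DMSO kidneys (-2.16 ± 0.42, limma adjusted p = 0.00716). Col6a6 has several transcripts, so these are listed values only. Col22a1 was at 0.0491 in CPF and 0.115 in DMSO kidneys (-1.77 ± 0.40, limma adjusted p = 0.0167), and Col19a1 at 0.027 in CPF and 0.124 in DMSO kidneys (-1.82 ± 0.46, limma adjusted p = 0.028). The log2(TPM + 1) scale understates the change of genes as low as these. Col11a1 was at 0.398 in CPF and 0.359 in DMSO kidneys (-1.33 ± 0.34, limma adjusted p = 0.0307), and Col26a1 at 0.594 in CPF and 0.320 in DMSO kidneys (-1.19 ± 0.32, limma adjusted p = 0.0367). After scaling to coding transcripts these ratios moved little in CPF kidneys but were higher in DMSO kidneys. There they were 3.69 for Col14a1, 3.19 for Col12a1, 0.232 for Col6a6 and 0.161 for Col22a1. For Col19a1, Col11a1 and Col26a1 they were 0.174, 0.505 and 0.45. Without the E14.5 and E16.5 libraries, a choice made after the data were seen, Col6a4 was called higher and Col6a6, Col19a1 and Col22a1 lower, and Col12a1, Col14a1, Col11a1 and Col26a1 were not called.

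**Figure D2:**
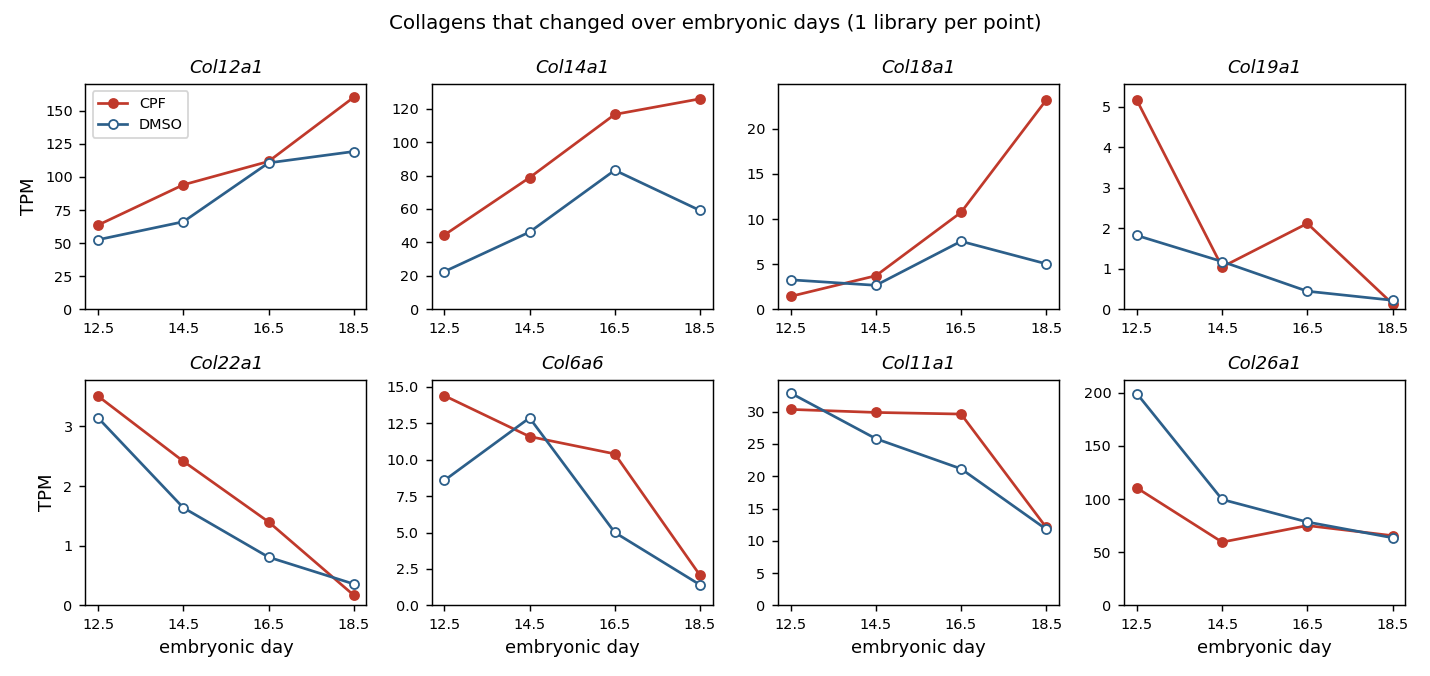
TPM (linear axes starting at 0) against embryonic day for the 8 collagens called in either test over stages, with CPF filled and DMSO open, 1 library per point. Col12a1, Col14a1 and Col18a1 had positive slopes and the other 5 negative ones, and the CPF E18.5 library of Col18a1 stands at 23.2 TPM, against 5.04 TPM in the DMSO library.

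A straight line over the 4 stages (limma, agent as the other term) called the same 7 genes and Col18a1 as well. The 3 positive slopes compare with 5.79% of all genes and the 5 negative ones with 6.72%. Col12a1 changed by 0.21 ± 0.03 log2 units a day (limma adjusted p = 0.00493) and Col14a1 by 0.25 ± 0.05 (limma adjusted p = 0.0162). When 1 stage was left out, the Col12a1 slope stayed between 0.20 and 0.23 and lost its call without E12.5 and without E18.5. That of Col14a1 ran from 0.13 without E12.5, where its call was lost, to 0.40 without E18.5. The slope of Col18a1 was 0.35 ± 0.09 (limma adjusted p = 0.0325); without any 1 stage it stayed between 0.33 and 0.41, but its call was lost. The E18.5 value of Col18a1 was 16.1 times its E12.5 value in CPF kidneys and 1.54 times in DMSO kidneys. After scaling to coding transcripts it was 16 times in CPF kidneys and 2.17 times in DMSO kidneys. Col18a1 has several transcripts, so these are listed values only. The negative slopes ran between -0.18 for Col26a1 (limma adjusted p = 0.047) and -0.36 for Col6a6 (limma adjusted p = 0.0201). Without the E18.5 libraries none of these 5 was called, with slopes of -0.14 for Col6a6 and -0.08 for Col11a1. Without E12.5 only Col6a6 was called (-0.57), and the Col26a1 slope was -0.06. Col11a1 also lost its call without E14.5, and Col19a1 and Col26a1 without E16.5. Col6a4, Col15a1 and Col6a2 had positive slopes that did not pass (0.40, 0.27 and 0.18, with limma adjusted p of 0.0547, 0.123 and 0.0875).

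The most abundant fibrillar chains were not called over stages. In the E18.5 minus E12.5 comparison Col3a1 gave 0.28 ± 0.30 (limma adjusted p = 0.6), Col1a1 0.31 ± 0.40 (limma adjusted p = 0.675) and Col1a2 0.18 ± 0.34 (limma adjusted p = 0.779). Among the 10 fibrillar genes tested, 0 were called higher and 1, Col11a1, lower. Among the 8 FACIT genes tested, 2 were called higher and 2 lower. Among the 6 beaded filament genes, 0 were called higher and 1, Col6a6, lower. Col22a1 and Col19a1 fell beside the skeletal muscle markers, of which 7 of 9 passed the filter and 6 were called lower at E18.5. These summed to 464, 338, 85.1 and 12.8 TPM in CPF kidneys and 115, 145.6, 53.1 and 6.42 TPM in DMSO kidneys; Tnnt3 and Acta1, with several transcripts, were near 0. Their part in the fall of Col22a1 and Col19a1 was not tested.

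Between CPF and DMSO kidneys, the 6 collagens with the lowest p-values were Col6a1, Col6a2, Col14a1, Col6a4, Col3a1 and Col6a3, each higher in CPF, and 0 passed the test over stages. In that test (limma, stage as the other term, 3 residual degrees of freedom), 0 of the 34 collagens were called in either direction, where 0.154% of all genes were called higher and 0.00731% lower. At an unadjusted p under 0.05, 6 were higher (8.15% of all genes) and 0 lower (1.40%). The median of the 34 was 0.31, against 0.15 for all tested genes, and 27 of 34 were above 0, against 72.6% of all. Within a stage there is 1 library per group, so the differences at single stages have no replicate check.

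Col6a2 differed by 1.00 ± 0.24 (log2, CPF minus DMSO; limma adjusted p = 0.138) and Col6a1 by 0.91 ± 0.22 (limma adjusted p = 0.134), each higher in CPF at 4 of 4 stages. Col14a1 differed by 0.82 ± 0.21 (limma adjusted p = 0.153) and Col3a1 by 0.56 ± 0.21 (limma adjusted p = 0.399), also at 4 of 4 stages. Col6a4 gave 1.25 ± 0.46 (limma adjusted p = 0.399), of which the E16.5 difference of 2.96 and the E18.5 difference of 1.63 made up most, while E14.5 gave -0.17. Col6a3, with its 2 transcripts, gave 0.65 ± 0.29 (limma adjusted p = 0.514). With the filter raised to 5 TPM in at least 2 libraries, Col6a1 and Col6a2 passed (limma adjusted p = 0.0471 and 0.0394, where 0.871% of all genes were called higher). Without the E14.5 libraries, Col6a2 and Col6a4 passed (limma adjusted p = 0.0235 and 0.00969, where 1.39% of all genes were called higher), and without the E16.5 libraries the Col6a4 difference was 0.68. Over the alternatives tried, the limma adjusted p ran between 0.0471 and 1 for Col6a1, between 0.0235 and 1 for Col6a2 and between 0.00969 and 1 for Col6a4, with the direction kept. Without both the E14.5 and E16.5 libraries, chosen after the data were seen, 0 passed in either direction. Type I chains were not higher throughout: Col1a1 gave 0.29 ± 0.28 (limma adjusted p = 0.841) and Col1a2 0.41 ± 0.24 (limma adjusted p = 0.652).

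**Figure D3:**
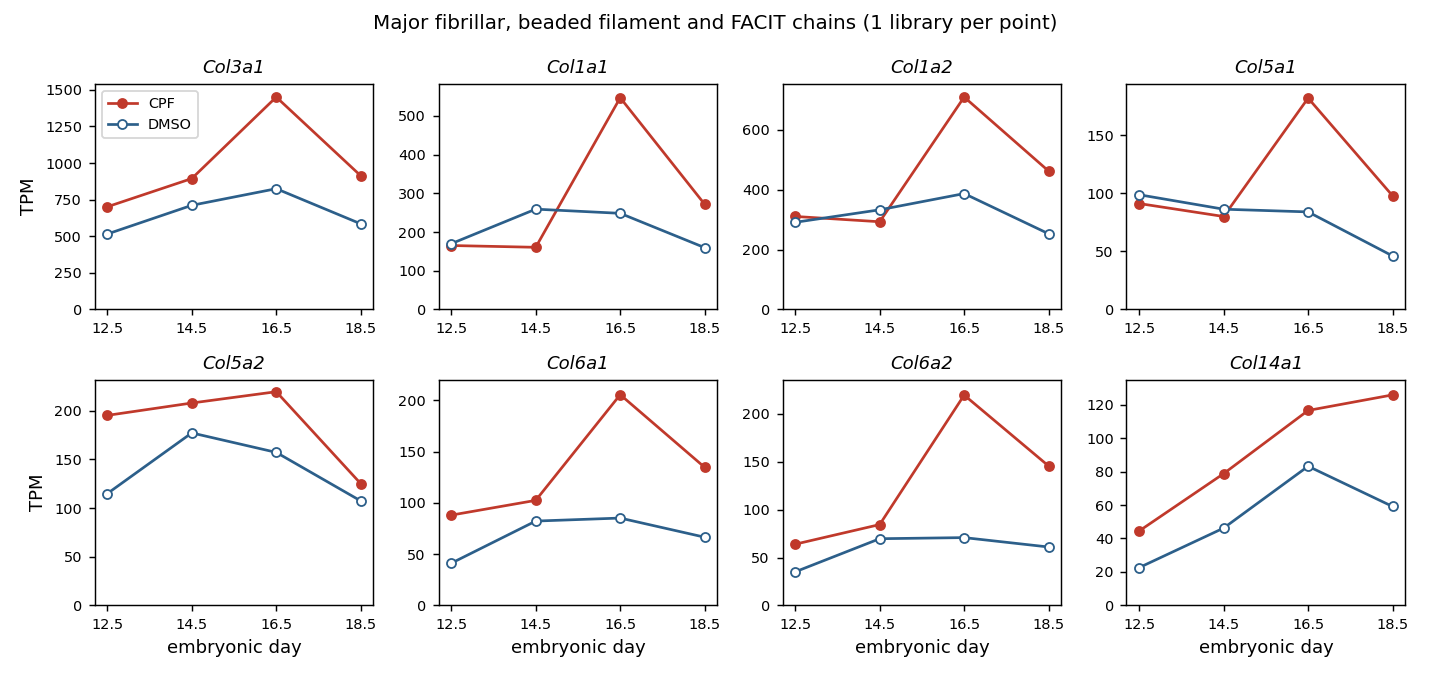
TPM (linear axes starting at 0) against embryonic day for 8 major collagen chains, with CPF filled and DMSO open, 1 library per point. Col3a1, Col5a2, Col6a1, Col6a2 and Col14a1 were higher in CPF at each stage, and Col1a1, at 547 TPM in CPF and 248 TPM in DMSO at E16.5, was lower in CPF at E14.5.

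The stages differed in how far the agents lay apart. Members more than 1 log2 unit higher in CPF numbered 3 at E12.5 (6.04% of all genes), 0 at E14.5 (6.18%), 6 at E16.5 (7.44%) and 9 at E18.5 (20.4%). Those more than 1 log2 unit lower numbered 0 at E12.5 (2.50%), 0 at E14.5 (2.16%), 1 at E16.5 (3.20%) and 1 at E18.5 (2.02%). The genes lower in CPF were Col10a1 at E16.5 (-1.16) and Col11a2 at E18.5 (-1.63). The median of the members was 0.20, -0.04, 0.46 and 0.33 over the 4 stages, against -0.12, 0.03, 0.13 and 0.53 for all genes. After scaling to coding transcripts, the members' medians were 0.22, -0.10, 0.27 and 0.01, against -0.10, -0.02, -0.05 and 0.14 for all genes, and the numbers more than 1 log2 unit higher were 3 at E12.5 (7.14% of all genes), 0 at E14.5 (6.49%), 4 at E16.5 (6.68%) and 3 at E18.5 (10.1%). Among genes higher in CPF at E18.5 as deposited, the largest differences were those of Col18a1 (2.00), Col6a4 (1.63) and Col15a1 (1.49).

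By direction alone, 8 of the 34 were higher in CPF at 4 of 4 stages, where 13.8% of all genes were: Col3a1, Col5a2, Col12a1, Col14a1, Col6a1, Col6a2, Col6a3 and Col28a1. Col28a1 passed the filter only through its CPF E14.5 and E16.5 values, so its place here, as deposited or scaled, carries no weight. Col24a1 was the 1 gene lower at 4 of 4 stages, where 3.00% of all genes were. After scaling to coding transcripts 6 of these 8 were higher at each stage (8.78% of all genes), without Col12a1 and Col5a2, and Col24a1, Col26a1 and Col27a1 were lower at each stage (9.61% of all genes). The 6 beaded filament genes as a sum were 1.98-fold, 1.21-fold, 2.78-fold and 2.23-fold higher in CPF over the 4 stages, and 2.01-fold, 1.16-fold, 2.40-fold and 1.61-fold higher after that scaling. The sum of the 3 short-chain collagens was 1.79-fold higher in CPF at E12.5, then 0.918, 0.763 and 0.662 of the DMSO sum. The lower sums followed Col8a2, while Col8a1 was higher in CPF at E14.5 (0.34) and E16.5 (0.96) and Col10a1 at E18.5 (0.77).

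**Figure D4:**
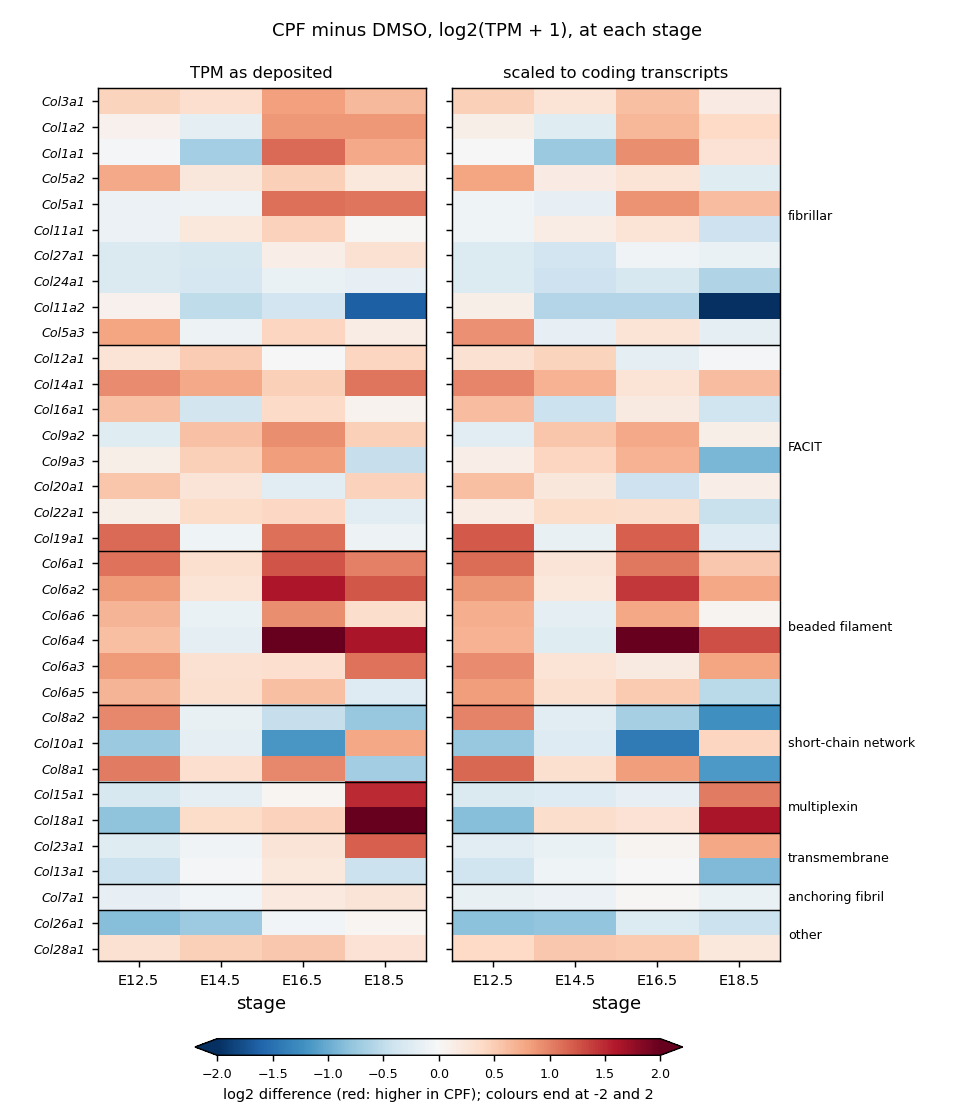
CPF minus DMSO difference in log2(TPM + 1) at each stage for the 34 collagens that passed the filter on low values, as deposited (left) and after scaling to coding transcripts (right), red where higher in CPF, with rows grouped by class. The beaded filament block is mostly red in both panels, while at E18.5 several fibrillar and FACIT rows turn from red to blue after the scaling.

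Markers of other cell types also differed between the agents, in both directions. Smooth muscle and mural markers, of which 6 of 7 passed the filter, summed to 242.5, 240.1, 1060 and 740.2 TPM in CPF kidneys, against 229.5, 199, 349.9 and 333 TPM in DMSO kidneys; Myh11, with 2 transcripts, was at or near 0. As deposited, their sum thus stood highest in the 2 libraries, CPF E16.5 and E18.5, in which Col3a1, Col1a1, Col1a2, Col6a1, Col6a2 and Col6a4 were also highest. After scaling to coding transcripts this did not hold for Col3a1 and Col1a1. Col3a1 was then 1305 in the DMSO E16.5 library, against 1235 in the CPF E18.5 library. Col1a1 was 392.8 and 371.9 in the DMSO E16.5 and E14.5 libraries, against 367.4 in the CPF E18.5 library. Acta2, smooth muscle actin, had 74.2, 65.8, 515 and 333 TPM in CPF kidneys, against 28.7, 26.1, 117 and 141 TPM in DMSO kidneys (1.501 ± 0.22, limma adjusted p = 0.0222). Renal stroma markers, of which 6 of 8 passed, summed to 298, 194.1, 314.1 and 515.7 TPM in CPF kidneys, against 428.1, 316, 489.6 and 332 TPM in DMSO kidneys; Pdgfrb, with 2 transcripts, was listed at 0. The stromal sum was thus lower in CPF at E12.5, E14.5 and E16.5 and higher at E18.5. At E18.5 most of the CPF sum was Penk and Tcf21, at 266.1 and 202.6 TPM, against 138.5 and 102.4 TPM in DMSO. Foxd1 and Ntn1 went the other way there, at 9.04 and 32.8 TPM in CPF, against 22.1 and 66.5 TPM in DMSO. Foxd1 was lower in CPF at each stage. Tendon and loose connective tissue markers, of which 5 of 6 passed, summed to 42.5, 41.05, 58.23 and 25.07 TPM in CPF kidneys, against 32.1, 43.28, 42.6 and 45.77 TPM in DMSO kidneys, with no common direction. The most abundant of them, Scx, had 31.8, 24.8, 19.2 and 15.6 TPM in CPF kidneys, against 27.2, 32.6, 28.4 and 39.4 TPM in DMSO kidneys. Of the 5 tested, 4 had a CPF minus DMSO change above 0, where 72.6% of all genes did, and Scx did not (-0.50). Dpt had 0.432, 8.87, 26.2 and 2.88 TPM in CPF kidneys, against 0.0493, 2.11, 5.07 and 2.12 TPM in DMSO kidneys (1.15 ± 0.36, limma adjusted p = 0.244). Skeletal muscle markers were higher in CPF at 4 of 4 stages for 5 of 7 tested genes, and liver markers for 7 of 7, where 13.8% of all genes were. The counts were 3 of 6 for adrenal cortex, 2 of 6 for smooth muscle and mural, and 2 of 4 for cartilage markers. They were 2 of 5 for tendon and loose connective tissue, 1 of 5 for erythroid, and 0 for kidney, renal stroma, endothelial and peripheral glia markers. The cartilage count includes Acan and the adrenal cortex count Nr5a1, which reached at most 0.743 and 0.736 TPM in DMSO libraries. Both passed the filter only through CPF libraries, so their part in these counts carries no weight. Endothelial markers, of which 4 of 6 passed, summed to 310.5 TPM in the CPF E18.5 library, the one with the highest Col15a1 and Col18a1, and to 105.6 TPM in the DMSO E18.5 library. The kidney and renal stroma sums were also highest in that CPF library. The kidney sum was 1785 TPM there, 1197 TPM of it Lrp2, against 550.7 TPM in the DMSO E18.5 library. The part of these tissues in the collagen differences was not tested.

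The course over days was not shown to differ between the agents. In a test of the agent by day term (limma), 0 of the 34 collagens and 0.00% of all genes were called in either direction. At an unadjusted p under 0.05, 1 collagen had a higher slope in CPF (24.9% of all genes) and 1 a lower one (1.56%). The 2 were Col18a1, with a slope difference of 0.43 ± 0.11 log2 units a day, and Col8a2, with -0.27 ± 0.08 (limma adjusted p = 0.132 for each). Col8a2 stood at 23.6 TPM in CPF and 40.6 TPM in DMSO kidneys at E18.5, against 47.1 TPM in CPF and 23.8 TPM in DMSO kidneys at E12.5.

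Genes that make, assemble and remove collagen were set beside the chains, and none of these lists held a gene called between CPF and DMSO. Of 17 tested genes that process chains in the endoplasmic reticulum, 1 was called higher at E18.5 than at E12.5 and 0 lower, where 4.67% of all genes were higher and 3.73% lower; the counts of the lists that follow compare with the same shares. The called gene was P3h2, a prolyl 3-hydroxylase, with 16.7, 14.51, 33.6 and 125 TPM in CPF kidneys, against 11.5, 11.01, 32.4 and 24.2 TPM in DMSO kidneys (log2 change 1.92 ± 0.50, limma adjusted p = 0.0383). The most abundant were P4hb, a subunit of prolyl 4-hydroxylase, with 543, 545, 914 and 974 TPM in CPF kidneys, against 748, 504, 556 and 472 TPM in DMSO kidneys, and Ppib, a prolyl isomerase. P4hb was above DMSO in CPF kidneys at E14.5, E16.5 and E18.5 and below at E12.5. Of 9 tested genes of propeptide removal and cross-linking, 0 were called between the stages, and by slope Pcolce2, an enhancer of propeptide removal, was lower (-0.21 ± 0.06 a day, limma adjusted p = 0.0337).

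Of 12 tested fibril-associated proteoglycans and glycoproteins, 2 were called higher at E18.5 and 0 lower. Thbs2, a matricellular protein that affects fibril shape, had 25.1, 34.4, 55.1 and 95.4 TPM in CPF kidneys, against 9.16, 24.1, 49.8 and 59.9 TPM in DMSO kidneys (2.23 ± 0.35, limma adjusted p = 0.00209). Bgn, the small proteoglycan biglycan, had 38.1, 53.2, 133 and 189.8 TPM in CPF kidneys, against 44.4, 55.3, 79.2 and 68.7 TPM in DMSO kidneys (1.45 ± 0.39, limma adjusted p = 0.0407). Prelp was also called by slope (0.20 ± 0.06 a day, limma adjusted p = 0.0444). All 12 of these 12 had a CPF minus DMSO change above 0, where 72.6% of all genes did, with a median of 0.49. Dcn, Fn1 and Postn among them have several transcripts and so have listed values only. Lum, the proteoglycan lumican that regulates fibril width, came nearest to a call. It had 97.8, 281, 262 and 55.1 TPM in CPF kidneys, against 17.4, 139.9, 96.5 and 33.6 TPM in DMSO kidneys (1.39 ± 0.27, limma adjusted p = 0.0721), higher in CPF at each stage.

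Of 9 tested genes of collagen breakdown, Timp3, a metalloproteinase inhibitor held in the matrix, was called higher at E18.5 and Mmp16, a membrane metalloproteinase, lower. Timp3 had 40.7, 72.7, 115 and 324 TPM in CPF kidneys, against 37.8, 50.3, 95.8 and 108 TPM in DMSO kidneys (2.23 ± 0.36, limma adjusted p = 0.00244), and Mmp16 had 49.0, 46.7, 31.0 and 18.46 TPM in CPF kidneys, against 43.2, 45.8, 34.6 and 22.7 TPM in DMSO kidneys (-1.13 ± 0.32, limma adjusted p = 0.0466). Of 5 tested collagen receptors, Itga1, the alpha chain of a collagen-binding integrin of mural and mesangial cells, was called higher and 0 lower. Itga1 had 15.7, 26.6, 63.1 and 222 TPM in CPF kidneys, against 12.6, 19.9, 45.8 and 63.9 TPM in DMSO kidneys (2.99 ± 0.39, limma adjusted p = 0.000648). For Timp3 and Itga1 the CPF E18.5 library was the highest of the 8. Serpinh1, Fkbp10, Lox, Sparc, Timp1 and Ddr1 have several transcripts in the files and were at or near 0, so their values say nothing of their level. Serpinh1, and Bmp1 with several transcripts too, still passed the filter and are counted among the tested genes of their lists.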

How the data were processed

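The authors deposited 1 table of TPM per RefSeq transcript for each of the 8 libraries (32862 transcripts, summing to 1000000 in each). Trimmomatic, STAR and mm10 are named in the submitters' processing notes, with no versions. Neither the assignment of reads to transcripts nor the use of strand is stated in the sources read. RNA input was total RNA per the labels' protocols. TPM keeps no depth, which is therefore unknown beyond the step of the low values: 63.6 to 68.0% of them lay within 0.05 of a whole multiple of the step taken as 1 read.

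Transcripts were summed per symbol into 24151 genes, after 52 rows with symbols turned into dates or numbers had been restored from their RefSeq identifiers. TPM are not counts, so limma (3.58.1, R 4.3.3) was run on log2(TPM + 1), with mean-variance trend and robust moderation, for 13677 genes with at least 1 TPM in at least 2 libraries. On this scale the changes of low genes come out too small. Calls were Benjamini-Hochberg adjusted p under 0.05 over all tested genes. With stage and agent in the fit, the spread behind each p is how the agents' difference varies over stages, or how libraries depart from a line over days, and not the spread between animals. The procedure was tested on simulated data, with planted changes larger than any collagen estimate. That test does not bear on power at the sizes found here.

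The members, their classes, the gene lists and the tests were chosen with earlier results of these data known. Every member is accounted for, those with a mean of at least 5 TPM library by library, and called genes of each list are named, or else the most abundant. P4hb, Ppib and Lum are named beside called genes, and Dpt and Acta2 were chosen after their values were seen. So were Des, Rgs5, Nr5a1, Penk, Tcf21, Foxd1 and Ntn1. Gene coordinates and promoters are from the RefSeq tables of GRCm38.p6, the assembly that mm10 names. Alternatives were scaling to coding transcripts, quantile normalization, a pseudocount of 0.1, other filters, the highest transcript of each gene, no robust moderation, other terms in the fit, and leaving out each stage.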

Additional observations from a re-analysis of the deposited data

How the results depend on the processing

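The labels give no replicate numbers; the CPF against DMSO fit holds stage as a term and so compares the libraries of a stage with each other. As reported, 0 collagens were called in CPF against DMSO, 2 higher and 5 lower between E18.5 and E12.5, 3 higher and 5 lower by slope, and 0 for the slope by agent. Scaling to coding transcripts gave 5 higher at E18.5 (6.91% of all genes, against 4.67% as reported) and 5 higher by slope (8.98%, against 5.79%). A pseudocount of 0.1 gave 4 higher at E18.5 (5.315%). With no filter on low values, 0 were higher and 0 lower at E18.5, and 1 higher and 2 lower by slope (0.8985% and 1.78% of all genes), when limma called 0 of all genes between the stages. The filter of 5 TPM gave 2 higher in CPF (0.871%), 4 higher and 3 lower at E18.5 (6.07% and 5.99%), and 3 lower by slope (9.09%), with 28 members tested. With agent left out of the fit, 1 was higher and 3 lower at E18.5 (2.72% and 2.35%). Leaving out the E14.5 and E16.5 libraries, an alternative chosen after seeing the data, gave 1 higher and 3 lower at E18.5 (3.868% and 1.81%). When 1 stage was left out in turn, the counts ranged over 0 to 2 higher and 0 to 0 lower in CPF, 3 to 5 higher and 4 to 4 lower at E18.5, 1 to 3 higher and 0 to 4 lower by slope, and 0 to 0 for the slope by agent. The CPF count of 2 came without E14.5 (1.39% of all genes), and the slope count of 0 lower without E18.5 (0.110%). The count of 5 higher at E18.5 came without E14.5 too (6.2%).

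Among single calls, Col22a1 and Col6a6, among the alternatives in which each was tested, lost theirs between E18.5 and E12.5 only when no filter on low values was used, while Col11a1 also lost it without E14.5 and without E16.5. Col26a1 lost its slope after scaling to coding transcripts (-0.14, limma adjusted p = 0.0747). The causes were not tested. Among the alternatives run, 0 of the called results turned round, while some uncalled slopes by agent, such as that of Col10a1, changed sign. Depth limits the low members: Col19a1 and Col22a1 rest on an estimated 5.67 to 52.0 reads a library at E18.5, and the 7 members with several transcripts have listed values only.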
